A study of Mus musculus with 9 samples.

Results

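The chaperonin TRiC, also called CCT, is built from the products of 8 genes, Tcp1, Cct2, Cct3, Cct4, Cct5, Cct6a, Cct7 and Cct8. These 8 symbols were looked up in a count table of 55011 genes, all 8 were found, and all 8 were among the 10235 genes with enough counts to be tested. The cells were CD8 T cells from the spleen of wild-type mice, cultured as naive cells and stimulated for 6 h by antibodies bound to the plate at 4 µg/mL, against CD3, which signals for the T cell receptor, and CD28, a costimulatory receptor. The groups were an untreated control, 20 mM D-2HG and 20 mM L-2HG, each compound given from the start of stimulation, with 3 libraries per group. Both compounds are 2-hydroxyglutarate and differ as mirror images, and the study asked what D-2HG, the form made by mutant isocitrate dehydrogenases, does to these cells. The labels give no age, strain or vehicle and do not say whether the 3 libraries of a group came from separate animals or cultures, so that p-values measure the spread between these libraries, which may be technical.

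TRiC is a barrel of stacked rings, in which each of the 8 subunits holds a fixed place, and it closes over unfolded proteins in a cycle driven by ATP. Actin and tubulin are its best known substrates, and several WD-repeat proteins such as the mitotic activator Cdc20 and G protein beta subunits also fold in it. Prefoldin, a hexameric cochaperone, hands actin and tubulin to it, and a separate set of tubulin cofactors then pairs folded alpha and beta tubulin. Stimulated T cells are known to enlarge and to remodel their cytoskeleton. The data here are transcript counts and hold no measure of the complex itself.

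The 8 genes lie on 8 chromosomes. In mm10 Tcp1 (ENSMUSG00000068039) is on chromosome 17 at 12915701 to 12925067, Cct4 (ENSMUSG00000007739) on chromosome 11 at 22990519 to 23003780, and Cct5 (ENSMUSG00000022234) on chromosome 15 at 31590800 to 31601804. Cct2 (ENSMUSG00000034024) is on chromosome 10 at 117051001 to 117063814, Cct3 (ENSMUSG00000001416) on chromosome 3 at 88297116 to 88321767, and Cct7 (ENSMUSG00000030007) on chromosome 6 at 85451514 to 85468475. Cct8 (ENSMUSG00000025613) is on chromosome 16 at 87483326 to 87495873. Cct6a (ENSMUSG00000029447) is on chromosome 5 at 129786998 to 129846371, where GENCODE M21 lists it as a processed transcript without a coding sequence and the authors' deposited table lists it as protein coding. Exons of Tcp1, Cct6a, Cct7 and Cct8 share stretches of 141 to 571 bases with genes on the opposite strand (Mrpl18 and Acat3, Psph, Pradc1 and Usp16). Whether the counting used strand is not given in the sources used here, so reads in these stretches are uncertain. The processed copies Cct3-ps1 and Tcp1-ps1 held 3 and 4 counts over all 9 libraries, and the paralogs Cct6b and Cct8l1 held 10 and 2.

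Promoters were compared because the 8 genes encode parts of one complex and had estimates of the same direction in both comparisons with control. RefSeq (GRCm38.p6) gave a window for 7 of the 8, and Cct4 had none. In the 250 bases before the start site, the GC box GGGCGG was found in 7 of 7 promoters, against 33.0% of all 32536 windows of this length. The box CCAAT was in 4 of 7 (33.8% of all windows), the ETS core CCGGAA in 4 of 7 (12.1%), the E-box CACGTG in 0 of 7 (6.04%), and paired heat shock half-sites, GAANNTTC or TTCNNGAA, in 1 of 7 (12.9%). Each was searched on both strands, and a match is only a match of letters. The windows of Cct7, Cct6a, Tcp1, Cct8, Cct3, Cct2 and Cct5 held 66.4%, 62.8%, 59.2%, 58.0%, 56.0%, 52.8% and 45.2% G or C. The median over all windows was 52.4%, and the windows compared were not matched for this content. The windows of Cct5, Cct2 and Tcp1 are shown because Cct5 had the largest differences from control, Cct2 the smallest and Tcp1 the largest difference between the compounds. Capitals mark the matches, and each sequence reads 5′ to 3′ towards the start site.
Cct5, chromosome 15, 31601847 to 31602096, minus strand: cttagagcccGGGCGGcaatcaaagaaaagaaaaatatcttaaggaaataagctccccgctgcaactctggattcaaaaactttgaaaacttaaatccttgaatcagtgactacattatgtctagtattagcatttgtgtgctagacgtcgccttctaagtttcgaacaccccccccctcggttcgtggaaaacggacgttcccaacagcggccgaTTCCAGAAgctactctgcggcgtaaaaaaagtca
Cct2, chromosome 10, 117063853 to 117064102, minus strand: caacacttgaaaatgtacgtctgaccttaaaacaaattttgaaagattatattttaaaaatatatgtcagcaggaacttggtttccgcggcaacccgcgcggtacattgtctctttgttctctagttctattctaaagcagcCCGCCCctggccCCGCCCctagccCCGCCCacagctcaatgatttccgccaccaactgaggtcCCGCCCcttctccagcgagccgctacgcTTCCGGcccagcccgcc
Tcp1, chromosome 17, 12916079 to 12916328, plus strand: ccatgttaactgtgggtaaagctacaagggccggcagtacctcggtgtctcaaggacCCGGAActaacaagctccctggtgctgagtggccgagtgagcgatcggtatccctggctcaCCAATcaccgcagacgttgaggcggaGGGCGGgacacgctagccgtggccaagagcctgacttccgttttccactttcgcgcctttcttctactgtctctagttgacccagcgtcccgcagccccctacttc
The Cct5 window held the paired heat shock half-sites and a single GC box, with 45.2% G or C. The Cct2 window held 4 GC boxes and an ETS core, and the Tcp1 window 1 each of ETS core, CCAAT box and GC box.

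The libraries held 562627 to 5731885 counts, with the lowest total in L-2HG replicate 2. Libraries also differed in quality measures. The satellite share, which is the part of all counts in Gm10800 and Gm10801, was 1.43%, 5.35% and 0.910% in control replicates 1, 2 and 3. For D-2HG it was 6.83%, 3.79% and 17.0%, and for L-2HG 6.71%, 24.4% and 7.98%. Transcripts encoded by mitochondria took 2.23% to 3.06% in control, 0.992% to 1.87% with D-2HG and 1.19% to 1.83% with L-2HG. Markers of CD8 T cells were abundant, with 9 of 9 tested and a summed level of 4388 to 5868 CPM in control, 3522 to 4559 with D-2HG and 3306 to 5000 with L-2HG (CPM of library totals). The 6 B cell markers summed to 181 to 281, 122 to 143 and 130 to 201 CPM, the 5 dendritic cell markers to 15.6 to 22.3, 23.8 to 35.8 and 21.3 to 34.9 CPM, and none of the other 7 lists passed 18.3 CPM in any library. Some single markers differed between groups. Of the 9 CD8 T cell markers, 4 fell with D-2HG, where 10.5% of all tested genes passed as lower. They were Trac, Cd3g, Cd3e and Cd8b1 (log2 fold changes -0.63, -0.73, -0.89 and -0.89, edgeR adjusted p = 0.0476, 0.0422, 0.0241 and 0.0138). Themis was higher by 0.57 (edgeR adjusted p = 0.0406), where 11.8% of all tested genes passed as higher. With L-2HG, Trac fell (-0.85, edgeR adjusted p = 0.0202), 1 of 9 against 8.30% of all tested genes as lower. Ighm, a B cell marker, fell with both compounds, by 0.92 and 0.67 on the log2 scale (edgeR adjusted p = 0.0114 and 0.0490). That was 1 of 2 tested B cell markers, against 10.5% and 8.30% of all tested genes as lower. Zbtb46, a dendritic cell marker, was higher with L-2HG by 1.10 (edgeR adjusted p = 0.0382). It was 1 of 2 tested dendritic cell markers, where 963 of 10235 tested genes passed as higher. The other, Xcr1, was at -0.21 with L-2HG (edgeR adjusted p = 0.691). These markers are named after their values were seen, and their part in the results on TRiC was not tested.

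The 8 transcripts together made up a visible share of the RNA. They took 1.32% (1.31 to 1.33), 1.07% (1.05 to 1.08) and 1.30% (1.29 to 1.31) of all counts in the 3 controls in order of replicate (Clopper-Pearson 95% intervals, exact). With D-2HG they took 1.01% (0.999 to 1.02), 1.08% (1.07 to 1.09) and 0.860% (0.848 to 0.871). With L-2HG they took 0.870% (0.858 to 0.881), 0.669% (0.648 to 0.691) and 1.04% (1.03 to 1.06). Summed and scaled by TMM, the subunits stood at 12911 ± 2370 CPM in control, 9820 ± 403 under D-2HG and 8608 ± 1459 under L-2HG (SD, n = 3). Controls 1 and 3, at 14953 and 13467 CPM, were above every other library. Control 2, at 10312 CPM, was just above the highest D-2HG and L-2HG libraries, at 10242 and 10241 CPM. On this scale control did not overlap the treated groups but nearly met them. As a share of all counts, control 2 at 1.07% lay below D-2HG replicate 2 at 1.08%, so those groups overlapped. In bulk RNA, fewer cells of a type and less RNA per cell cannot be told apart.

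**Figure D1:**
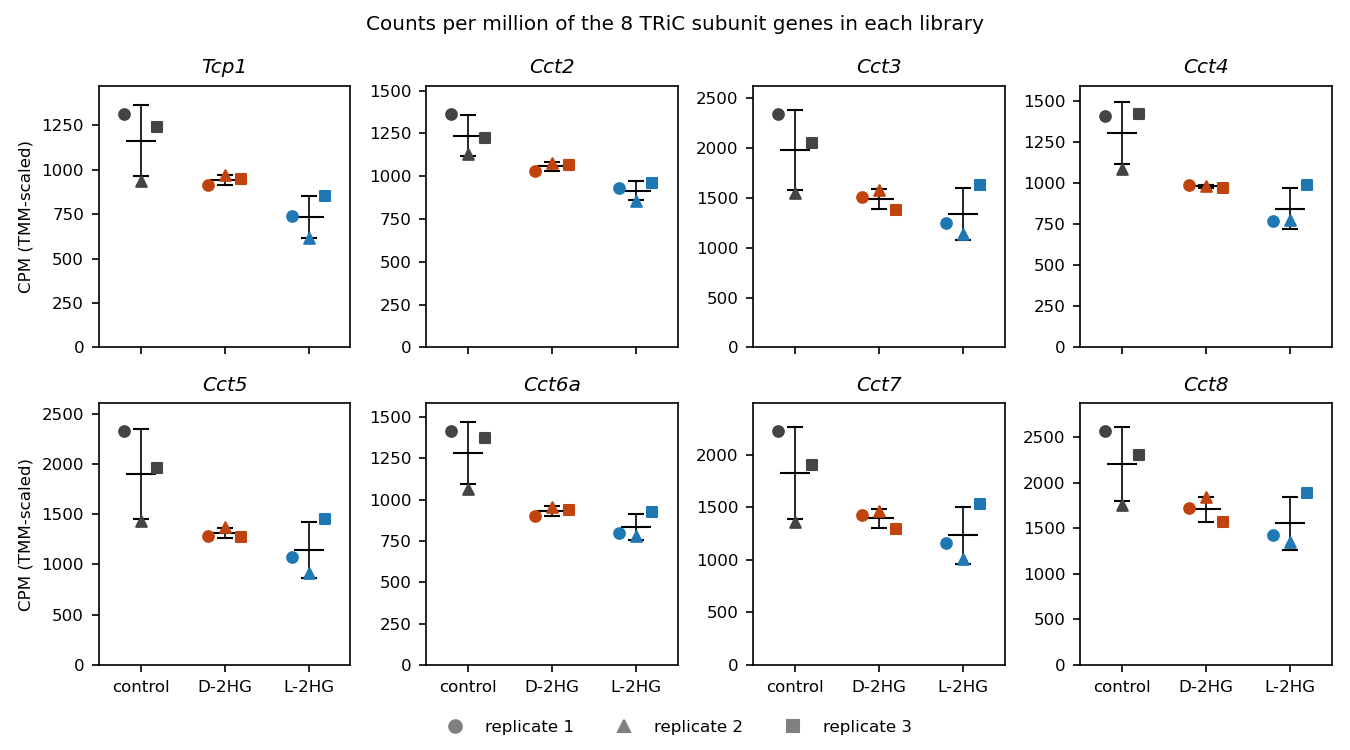
CPM (TMM-scaled, linear axis from 0) of each subunit gene in the 9 libraries, with 1 point per library (circle, triangle and square for replicates 1, 2 and 3) and the mean ± SD of 3 libraries. Control replicate 2 is the lowest control for all 8 genes, and the D-2HG libraries lie close together.

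The subunits were first read by their place in the ring. Tcp1, Cct2, Cct4 and Cct5 encode the subunits alpha, beta, delta and epsilon, which bind ATP with high affinity. Cct5 was measured at 2323, 1428 and 1955 CPM in control replicates 1, 2 and 3, at 1286, 1369 and 1276 under D-2HG and at 1074, 910 and 1454 under L-2HG. Cct4 was at 1412, 1086 and 1422 CPM in control, 991, 982 and 969 under D-2HG and 771, 774 and 992 under L-2HG. All 3 D-2HG libraries lay below all controls for both genes, and L-2HG replicate 3 lay above control replicate 2 for Cct5 but not for Cct4. Tcp1 was at 1314, 937 and 1240 CPM in control, 911, 970 and 945 under D-2HG and 740, 614 and 850 under L-2HG. Cct2 was at 1364, 1127 and 1222 CPM in control, 1030, 1078 and 1065 under D-2HG and 934, 853 and 961 under L-2HG. For Tcp1 and Cct2 each L-2HG library was below each D-2HG library, and for Tcp1 control 2 overlapped the D-2HG range.

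Cct3, Cct6a, Cct7 and Cct8 encode gamma, zeta, eta and theta, the subunits of low ATP affinity. Cct6a was measured at 1413, 1067 and 1371 CPM in control, 901, 958 and 936 under D-2HG and 798, 782 and 926 under L-2HG. Cct8 was at 2564, 1762 and 2302 CPM in control, 1719, 1845 and 1569 under D-2HG and 1426, 1350 and 1891 under L-2HG. Cct6a separated both compounds from control, while for Cct8 control 2 lay inside both treated ranges. Cct3 was at 2340, 1546 and 2052 CPM in control, 1511, 1575 and 1382 under D-2HG and 1245, 1141 and 1630 under L-2HG. Cct7 was at 2223, 1359 and 1903 CPM in control, 1430, 1466 and 1296 under D-2HG and 1162, 1011 and 1537 under L-2HG. Both were as for Cct8, with control replicate 2 inside the ranges of both treated groups.

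The comparisons of D-2HG and L-2HG with control share the same 3 control libraries. With L-2HG, Tcp1, Cct4, Cct5 and Cct6a fell and no subunit rose. Cct5 had a log2 fold change of -0.73 ± 0.22 (SE; 95% interval -1.19 to -0.26), a level 39.6% lower than control (edgeR quasi-likelihood test, adjusted p = 0.0336). Tcp1 fell by 36.7% (log2 fold change -0.66, -1.08 to -0.24, adjusted p = 0.0329 by edgeR). Cct4 and Cct6a fell by 35.2% and 34.9% (log2 fold changes -0.63 and -0.62, edgeR adjusted p = 0.0368 and 0.0354). The others missed the threshold, with log2 values of -0.56 for Cct3 and Cct7, -0.50 for Cct8 and -0.43 for Cct2 (edgeR adjusted p = 0.0658, 0.0747, 0.0912 and 0.0979). So 4 of 8 passed as lower, where 8.30% of all tested genes did (17.7% in either direction), and 8 of 8 had an unadjusted p under 0.05 (17.6% of all genes as lower). The median was -0.59 over the 8 and 0.05 over all tested genes, and 8 of 8 estimates were below 0 against 47.6% of all genes. The CPM ranges of L-2HG and control were apart for Tcp1, Cct2, Cct4 and Cct6a, 4 of 8 against 14.8% of all genes. DESeq2 and limma-voom each called all 8. These methods called 13.995% and 22.863% of all tested genes as lower. None of the 8 passed in edgeR with library totals in place of TMM or with only the 2 groups compared in the fit. With the log2 satellite share as a covariate, none passed either. In that order, these fits called 2.785%, 1.397% and 0.0489% of all tested genes as lower. In edgeR, no subunit passed without control replicate 1 or 3, D-2HG replicate 1, or L-2HG replicate 1 or 2. Those fits called 0.325% to 4.88% of all tested genes as lower. Only Cct5 passed without D-2HG replicate 2, where 5.61% of all tested genes passed as lower. All 8 passed without control replicate 2, and 7 passed without L-2HG replicate 3. These fits called 18.7% and 11.1% of all tested genes as lower.

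With D-2HG, edgeR called none of the 8 subunits, while all 8 estimates lay below 0, as did those of 48.3% of all genes. The log2 fold changes were -0.54 (SE 0.22) for Cct5, -0.46 (-0.86 to -0.06) for Cct6a, -0.41 (-0.82 to -0.01) for Cct4 and -0.41 (-0.85 to 0.03) for Cct3 (95% intervals; edgeR adjusted p = 0.0806, 0.0812, 0.122 and 0.155). They were -0.39 for Cct7, -0.37 for Cct8, -0.30 for Tcp1 and -0.23 for Cct2 (edgeR adjusted p = 0.195, 0.197, 0.261 and 0.368). Over all genes 10.5% passed as lower and 22.3% in either direction, against 0 of 8 here. At an unadjusted p under 0.05 the count was 3 of 8, against 18.5% of all genes as lower. DESeq2's Wald test called 3 (Cct4, Cct5 and Cct6a) and limma-voom with quality weights 7. These methods called 12.7% and 25.8% of all tested genes as lower. The median was -0.40 over the 8 and 0.04 over all tested genes. The ranges of D-2HG and control were apart for Cct2, Cct4, Cct5 and Cct6a, 4 of 8 against 19.3% of all genes. Without control replicate 2, edgeR called 6 of 8, all but Tcp1 and Cct2, with a median of -0.56. That fit called 19.7% of all tested genes as lower.

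**Figure D2:**
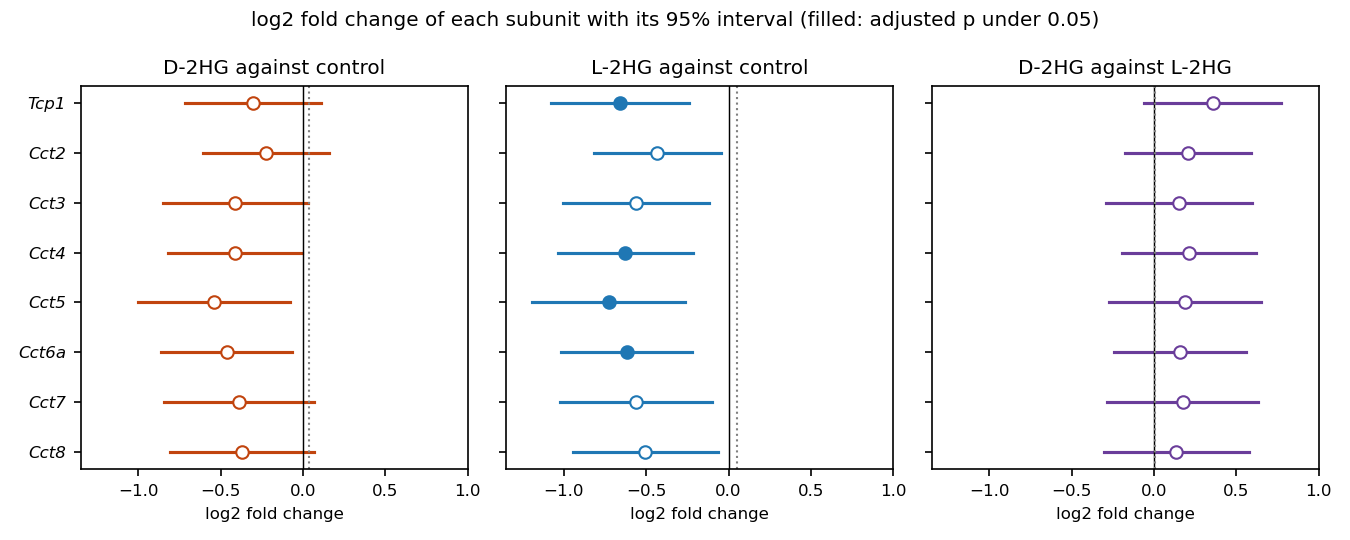
log2 fold change of each subunit (point) with its 95% interval (line) in the 3 comparisons, filled where the adjusted p was under 0.05, with the median of all tested genes as a dotted line. The 8 estimates lie below 0 against control for both compounds, and 4 of them are filled with L-2HG.

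The comparison of the compounds at 20 mM and 6 h gave no call. All 8 subunits had a higher mean with D-2HG than with L-2HG, by 0.14 to 0.36 on the log2 scale with a median of 0.18, and all 8 intervals included 0. Of all genes, 49.1% had an estimate below 0. Tcp1 differed most, at 0.36 (-0.06 to 0.77, 95% interval, edgeR adjusted p = 0.783), and Cct8 least, at 0.14 (-0.30 to 0.57, adjusted p = 0.953). Of all genes 0.303% were called, and no subunit had an unadjusted p under 0.05, against 6.97% of all genes. DESeq2 and limma-voom also called none, with 1 and 2 subunits at that unadjusted level. D-2HG and L-2HG ranges were apart for Tcp1 and Cct2, 2 of 8 against 7.77% of all genes as higher with D-2HG. The intervals leave room for a difference of up to 0.77 and do not show that the forms act alike.

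Differences between untreated controls were of like size. Control replicate 2 stood below the mean of controls 1 and 3 for each of the 8 genes, by a median of -0.45 on the log2 scale (from -0.60 for Cct7 to -0.20 for Cct2), against 0.01 over all tested genes. Its satellite share was the highest and its mitochondrial share the lowest among the controls. Among the D-2HG libraries the summed subunits stood at 10242, 9779 and 9438 CPM at satellite shares of 3.79%, 6.83% and 17.0%, lower where the share was higher. Among the L-2HG libraries they stood at 8149, 10241 and 7435 CPM at 6.71%, 7.98% and 24.4%, which is not in order. With the log2 satellite share as a covariate, the median over the subunits was -0.10 for D-2HG and -0.30 for L-2HG, all 8 estimates stayed below 0 in both comparisons, and 0 of 8 passed. That fit called 0.938% and 0.0782% of all genes. Genomic DNA reads, predicted from 1449 sensory receptor genes per base of exon, came to at most 0.365% of the count of any subunit in any library.

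**Figure D3:**
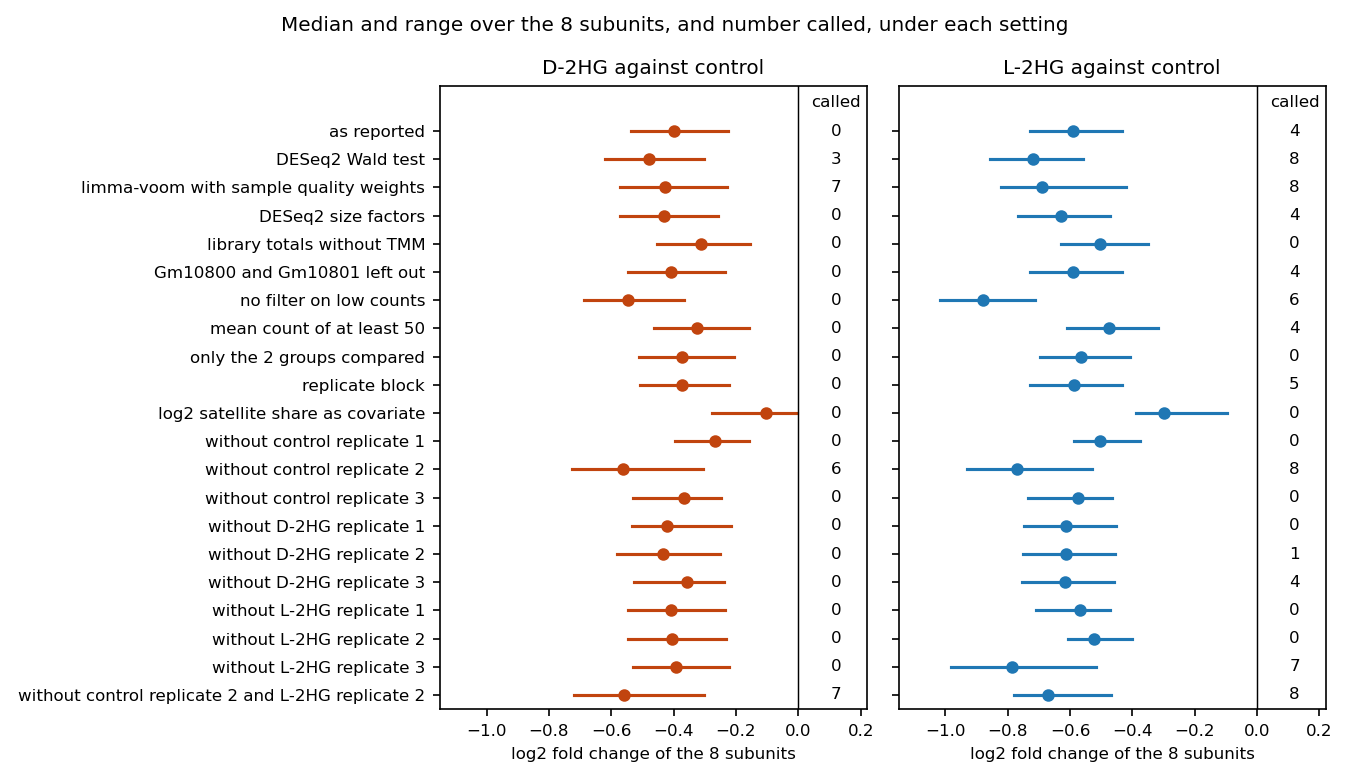
Median log2 fold change over the 8 subunits (point) and their range (line) against control under each way of processing, with the number called. Medians run from -0.56 to -0.10 for D-2HG and from -0.88 to -0.30 for L-2HG, all below 0.

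**Figure D4:**
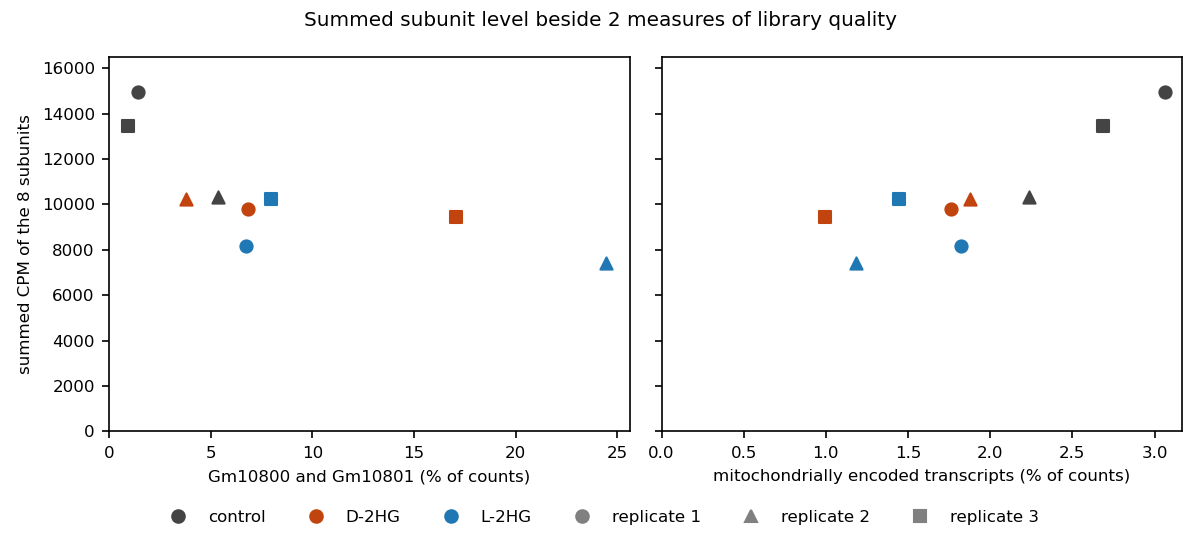
Summed CPM of the 8 subunits in each library against the percentage of counts in Gm10800 and Gm10801 (left) and in transcripts encoded by mitochondria (right), colored by group. Controls 1 and 3 stand at the top with 14953 and 13467 CPM, and control 2, at 10312 CPM, is just above the highest treated library at 10242 CPM.

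The complex holds its subunits in equal number, and their transcripts were compared per length. Per kb of coding sequence, control levels were 1344 ± 249 CPM for Cct8, 1211 ± 246 for Cct3, 1172 ± 277 for Cct5 and 1120 ± 268 for Cct7 (SD, n = 3). They were 808 ± 118 for Cct4, 771 ± 74.1 for Cct2 and 698 ± 120 for Tcp1, and Cct6a had no coding length. Neighbours in this order differed by less than their SD, except across the step from Cct7 to Cct4. Cct8 was highest and Tcp1 lowest in each of the 9 libraries, with a ratio of 1.92 ± 0.05 in control, 1.84 ± 0.14 under D-2HG and 2.15 ± 0.17 under L-2HG. Per kb of the merged exons of all annotated transcripts, the order changed to Cct8, Cct5, Cct2, Cct6a, Cct4, Cct3, Cct7 and Tcp1, and the control ratio was 3.10 ± 0.10.

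Shares of the summed level show the balance among subunits, and no test was made of them. Cct8 took 17.1 ± 0.03%, 17.4 ± 0.71% and 18.0 ± 0.49% of the summed subunit CPM in control, D-2HG and L-2HG, and Cct3 took 15.3 ± 0.33%, 15.2 ± 0.45% and 15.5 ± 0.35%. Cct5 took 14.6 ± 0.85%, 13.3 ± 0.19% and 13.2 ± 0.98%, while Cct2 took 9.71 ± 1.06%, 10.8 ± 0.44% and 10.8 ± 1.20%. For Cct5, control replicate 1 had the highest share at 15.5% and L-2HG replicate 2 the lowest at 12.2%, and all 3 D-2HG shares were below all 3 control shares.

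Genes whose pattern over the 9 libraries was most like the mean of the 8 subunits were Snx1, H13, Prdx6, Eif3d and Dimt1. Candidates were 5945 tested genes with a mean of at least 20 CPM, leaving out the 8 subunits and genes with symbols of predicted genes. Likeness was the root mean square difference of log2 CPM after centring each gene. It was 0.049 for Snx1, a sorting nexin, 0.052 for H13, the signal peptide peptidase, and 0.053 for the peroxiredoxin Prdx6. It was 0.055 for Eif3d, a subunit of initiation factor eIF3, and 0.058 for Dimt1, which methylates ribosomal RNA. The subunits themselves lay at 0.042 (Cct3) to 0.125 (Cct2), and the median candidate at 0.375. Each subunit is part of the mean it was compared with, which lowers its own distance. Many other genes shared this pattern, since 81 candidates lay closer to the mean than Cct5 and 248 closer than Cct2. Snx1 was at 221, 145 and 187 CPM in control, 149, 145 and 140 under D-2HG and 124, 105 and 143 under L-2HG, again with control replicate 2 among the D-2HG values.

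Prefoldin delivers unfolded actin and tubulin and has 6 subunits. With D-2HG, Pfdn1, Pfdn4 and Pfdn6 fell, 3 of 6, where 10.5% of all tested genes passed as lower. With L-2HG, Pfdn2 and Pfdn5 fell, 2 of 6 against 8.30% of all genes, and no prefoldin gene rose with either compound. Pfdn2 and Pfdn5 were at -0.57 and -0.69 with D-2HG (edgeR adjusted p = 0.0608 and 0.0616). Pfdn1, Pfdn4 and Pfdn6 were at -0.72, -0.59 and -0.57 with L-2HG (edgeR adjusted p = 0.0524, 0.149 and 0.130). No prefoldin gene was called between the compounds, where 0.303% of all tested genes were, so the lists of genes that passed do not show a difference between them. Pfdn1 was at 138, 70.3 and 102 CPM in control, 65.4, 58.5 and 59.6 under D-2HG and 69.1, 39.5 and 72.3 under L-2HG, so that the D-2HG range lay below control (log2 fold change -0.76, edgeR adjusted p = 0.0324). Pfdn6 fell from 109 ± 39.0 to 58.2 ± 10.3 CPM and Pfdn4 from 50.3 ± 22.9 to 28.7 ± 4.38 CPM with D-2HG (edgeR adjusted p = 0.0224 and 0.0394), and for both control replicate 2 lay inside the D-2HG range. With L-2HG, Pfdn2 fell from 180.1 ± 44.5 to 105 ± 26.1 CPM and Pfdn5 from 219 ± 72.9 to 122 ± 46.1 CPM (edgeR adjusted p = 0.0310 and 0.0455). Vbp1, the alpha-type subunit also called prefoldin 3, was at -0.41 and -0.40 with D-2HG and L-2HG, neither past the threshold. The prefoldin medians were -0.73 and -0.66 on the log2 scale. The phosducin-like cofactors Pdcl and Pdcl3 were at 0.65 and -0.36 under D-2HG and 0.16 and -0.38 under L-2HG, none past the threshold.

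Among actins and tubulins, the main substrates, 3 of 12 tested genes fell with each compound and none rose, against 10.5% of all genes as lower with D-2HG and 8.30% with L-2HG. They were the alpha tubulin genes Tuba1a, Tuba1b and Tuba4a. Tuba1a was at 87.9, 57.7 and 68.4 CPM in control, 39.6, 31.3 and 32.5 under D-2HG and 38.4, 31.6 and 51.4 under L-2HG, below every control in each treated library. Its log2 fold change was -1.06 ± 0.23 with D-2HG and -0.78 ± 0.24 with L-2HG (SE; edgeR adjusted p = 0.00644 and 0.0342). Tuba1b fell from 445 ± 106 to 238 ± 28.8 and 280 ± 59.9 CPM (edgeR adjusted p = 0.00993 and 0.0415), and Tuba4a from 632 ± 184 to 362 ± 66.7 and 347 ± 109 CPM (adjusted p = 0.0291 and 0.0306). The most abundant, Actb, which encodes beta actin, differed by -0.15 and -0.27, and the beta tubulin gene Tubb5 by -0.30 and 0.05, none past the threshold. The list median was -0.41 with D-2HG and -0.39 with L-2HG. Tuba1a and Tuba1b are near-identical copies, and how the counting split their reads is uncertain.

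Of the 6 tubulin folding cofactors, Tbca and Tbcb fell with both compounds, 2 of 6 against 10.5% of all genes with D-2HG and 8.30% with L-2HG. Tbca holds beta tubulin and Tbcb alpha tubulin. Tbcb was at 90.9, 55.7 and 79.6 CPM in control, 44.0, 34.9 and 42.0 under D-2HG and 44.6, 29.6 and 49.5 under L-2HG, with no overlap (edgeR adjusted p = 0.0128 and 0.0301). Tbca fell from 200.1 ± 40.9 to 112 ± 25.2 and 111 ± 42.0 CPM (edgeR adjusted p = 0.0256 and 0.0385). The larger cofactors Tbcd and Tbce were at 0.03 and -0.07 under D-2HG and 0.49 and -0.29 under L-2HG, neither called.

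Of all genes 11.8% rose with D-2HG. Of 13 tested genes for other substrates, Stat3, a transcription factor downstream of cytokine receptors, rose with D-2HG from 120 ± 39.3 to 224 ± 16.0 CPM (edgeR adjusted p = 0.0100). Stat3 was at 0.63 with L-2HG, short of the threshold (edgeR adjusted p = 0.0542). It was not called between the compounds (edgeR adjusted p = 0.863). The most abundant of the 13, Ppp2r2a, a WD-repeat subunit of protein phosphatase PP2A, was at 0.12 with D-2HG and -0.10 with L-2HG, neither called. Gnb1, a G protein beta subunit, fell with L-2HG from 288 ± 51.1 to 171 ± 27.3 CPM (edgeR adjusted p = 0.0258). It was 1 of 13, where 8.30% of all tested genes passed as lower. The list medians were -0.24 and -0.10, nearer to those of all genes than the medians of TRiC and prefoldin were. Of the 8 other chaperones and regulators, Hsf2, a heat shock transcription factor, rose with D-2HG from 27.2 ± 3.54 to 55.1 ± 5.58 CPM (edgeR adjusted p = 0.00642). No member fell with D-2HG, where 10.5% of all tested genes passed as lower. Hsf2 also lay above every control with L-2HG, at 0.61, short of the threshold (edgeR adjusted p = 0.0642). It was not called between the compounds (edgeR adjusted p = 0.796). With L-2HG Hspd1, Hspe1, Hsp90aa1 and Stip1 fell and none passed as higher, 4 of 8 against 8.30% of all genes as lower (Stip1 is named here after its value was seen, to complete the count). Hspd1, the mitochondrial chaperonin and thus the counterpart of TRiC there, was at 1468, 1240 and 1455 CPM in control, 982, 1028 and 1122 under D-2HG and 819, 766 and 864 under L-2HG (edgeR adjusted p = 0.108 and 0.0155). Its 3 groups did not overlap, and D-2HG lay between. Hsp90aa1, an HSP90 gene, fell with L-2HG from 779 ± 191 to 412 ± 140 CPM (edgeR adjusted p = 0.0220). The cytosolic chaperones Hsp90ab1 and Hspa8 were at -0.14 and -0.03 under D-2HG and at -0.46 and -0.56 under L-2HG, none past the threshold. Hsf1, the main heat shock factor, was looked at after its values were seen and was at 144 ± 13.7, 172 ± 13.9 and 147 ± 3.96 CPM and did not pass in any comparison. Of the chaperonin paralogs Mkks and Bbs12 were tested, at up to 18.9 CPM, and neither passed.

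Of the 10 genes outside TRiC in these lists that passed with D-2HG, Hsf2 and Tuba1a passed in all 9 fits that each lacked 1 library. Of the 12 that passed with L-2HG, none did, and each passed in 2 to 6 of the 9. With only the groups compared in the fit, 10 of 10 were kept with D-2HG and 0 of 12 with L-2HG. With library totals in place of TMM, Pfdn1, Pfdn4, Pfdn6, Tbca and Tuba4a did not pass with D-2HG, and of the 12 with L-2HG only Hspd1 did. The satellite covariate left 0 of the 10 and 0 of the 12.

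**Figure D5:**
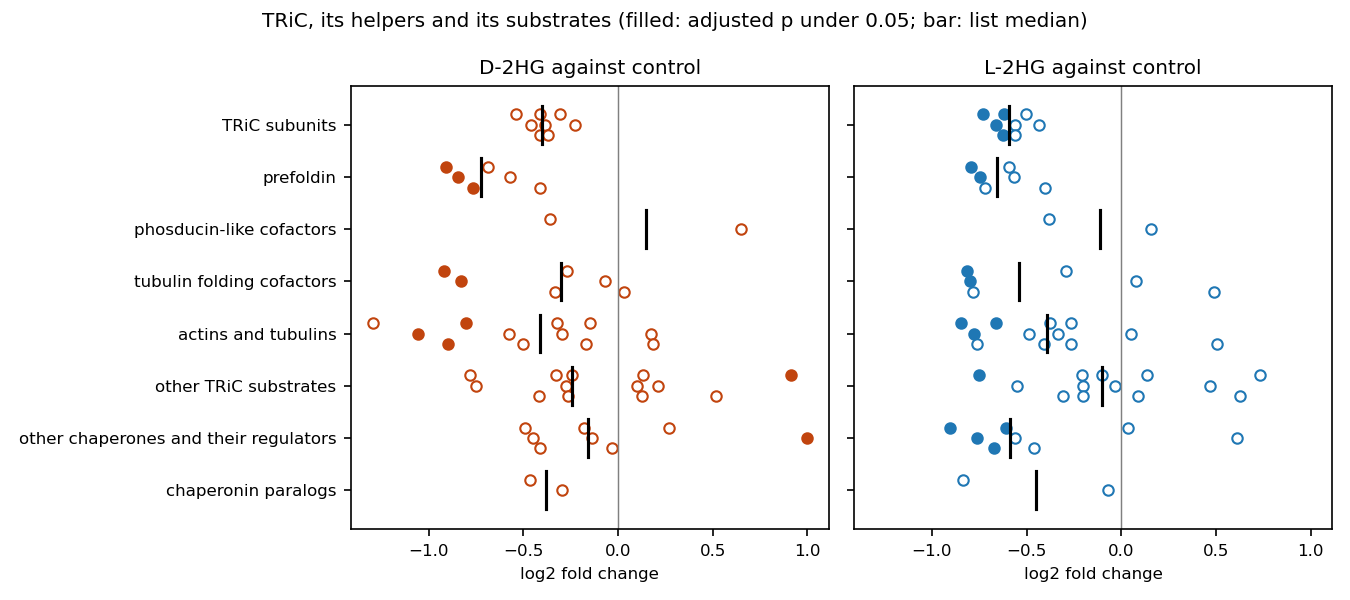
log2 fold change against control of every tested gene of TRiC and the 7 other lists (1 point per gene, filled where the adjusted p was under 0.05, black bar at the list median). TRiC genes, prefoldin genes and the 2 tested chaperonin paralogs all lie below 0 with both compounds. The substrate lists spread to both sides, with 10 of 12 actin and tubulin genes below 0 for each compound. Of all tested genes, 48.3% lay below 0 with D-2HG and 47.6% with L-2HG.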

How the data were processed

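Polyadenylated RNA was measured in 9 libraries. The authors deposited whole-number counts by gene symbol. Per the submitters' processing notes, STAR 2.7.3a, featureCounts and the build mm10 were used. Counting settings, strand handling and the annotation release are not given in the sources used here. A second deposited table holds signal values, the counts over 1 size factor per library, attributed to DESeq2 by the table's title. It served to pair symbols with identifiers and was not used for any level or test.

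The counts were then tested with edgeR 4.0.16 (limma 3.58.1, DESeq2 1.42.0, R 4.3.3). The filter filterByExpr, at a minimum count of 10 and given the groups, kept 10235 of 55011 genes. CPM values are scaled by TMM. One robust quasi-likelihood model covered the 9 libraries, with a mean for each group and 6 degrees of freedom left, and p-values of its F tests were adjusted by Benjamini-Hochberg across the tested genes. Intervals are 95% intervals of single genes. Total counts ran from 562627 to 5731885 per library, and intervals on a share of counts cover counting error only. Replicates differed by more than counting error (chi-square per degree of freedom 5.84 to 42.5 over pairs). Titles share replicate numbers across groups, and 2 of 9 same-number pairs had deviations from the group mean that correlated above 0.1. The labels do not say what a replicate number marks, so libraries were not treated as paired.

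The subunits, the 7 other lists and the rules were chosen with earlier results of these data known. All 8 subunits are named. Each other list names at most 3 genes past the threshold and 2 of the highest mean CPM per comparison, prefoldin all of its genes, and genes named outside this rule are marked. Positions and lengths came from GENCODE M21 (GRCm38, the mm10 assembly). The code was tested on simulated counts, with known changes in D-2HG against control. It called 27 of 100 genes changed by 1 on the log2 scale and 2 of 100 changed by 0.6. Median estimates were 0.99 and 0.63, and 3 of 32 calls were false. In that simulation 9994 genes were tested and no others were changed, so these shares need not hold for the data. Alternatives were DESeq2's Wald test, limma-voom with quality weights, other scalings and filters, a fit of the 2 groups compared, a replicate block, a satellite covariate and leaving out libraries.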

Additional observations from a re-analysis of the deposited data

How the results depend on the processing

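All 8 subunit estimates were below 0 against control with each compound, and above 0 for D-2HG against L-2HG, in the reported fit and in every alternative run. How many passed was less stable, and its cause was not tested. With D-2HG, 0 of 8 passed as reported, 3 with DESeq2, 7 with limma-voom, 0 to 6 with 1 library left out, and 7 without control replicate 2 and L-2HG replicate 2. With L-2HG, 4 passed as reported and 8, 8, 0 to 8 and 8 did so under the same alternatives, and 0 with library totals in place of TMM, with only the groups compared, or with the satellite covariate. Fits with 1 library left out called 1.74% to 19.7% of all tested genes as lower with D-2HG and 0.325% to 18.7% with L-2HG. The fit without control replicate 2 and L-2HG replicate 2 called 22.4% and 17.5% as lower. Over all genes, D-2HG gave 2278 calls as reported, 5617 with limma-voom, 1341 with no filter, 96 with the satellite covariate, 384 to 4257 with 1 library left out and 4850 without both libraries. L-2HG gave 1812, then 5180 with limma-voom, 1195 at a mean count of at least 50, 427 with only the groups compared, 8 with the covariate, 65 to 4108 with 1 library left out and 3787 without both. D-2HG against L-2HG gave 31, then 49 with DESeq2, 177 with limma-voom, 76 with the covariate, 10 to 60 with 1 library left out and 131 without both. Of the calls, 52.9% were higher with D-2HG and 53.1% with L-2HG, against 70.0% and 77.7% without TMM, 41.0% and 31.7% with DESeq2, and 39.6% and 31.0% with no filter, where the median of all genes moved from 0.04 to -0.10 and from 0.05 to -0.21. The ratio of the highest to the lowest subunit was 3.10 per kb of exon and 1.92 per kb of coding sequence. Leaving out 1 library leaves 2 in its group, and the spread is pooled over groups.

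Same-number correlations ran from -0.17 to 0.28, and 3 of 9 libraries correlated best with their own number. With 3 libraries per group that also differ in quality, these values cannot show whether a number marks a shared animal, culture or day. With the replicate number as a block, 0 of 8 subunits passed with D-2HG and 5 of 8 with L-2HG, the medians were -0.37 and -0.59, and 2314 and 2284 genes passed in all, with 35 between the compounds. That fit called 10.1% and 10.5% of all tested genes as lower with D-2HG and L-2HG.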
